A study of Ovis aries with 5 samples.

Results

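Stretches of the sheep autosomes without a region in the joint lists of 2 active histone marks are described here. The tissue was fetal perirenal adipose tissue, the fat around the kidney. Chromosomes 1 to 26 of the Oar_v3.1 assembly were cut into windows of 500 kb, and 788 of the 4889 windows (16.1%, or 394 of 2444.5 Mb) were kept because no region of the joint H3K4me3 list and no region of the joint H3K27ac list overlapped them. They are called unmarked windows below, which refers to these lists only. Just 300 of the 788 held no peak of any single library. The absence of regions in these joint lists was what the windows were chosen by, so every value drawn from H3K4me3 or H3K27ac inside them is a description and no test was made on it.

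The tissue came from wild type merino fetuses aged 132 days, from untreated ewes. ChIP-Seq, which sequences the nucleosomal DNA that an antibody to a histone mark pulls down, was performed for H3K4me3 and for H3K27ac on the same 2 animals, called replicate 1 and replicate 2. Input DNA pooled over the fetuses was the only control. After duplicates were removed, the libraries held 92882463 and 109652707 tags (mapped reads) for H3K4me3 and 144038222 and 145716523 for H3K27ac, against 26651829 for the input. The authors called peaks in each library and deposited joint lists of peaks found in both animals. In the files these lists follow a limit on the false discovery rate (FDR) of 1% for H3K4me3 and 10% for H3K27ac. The study's methods give lower limits, a slightly younger fetal age than the labels, and 1 more animal for H3K4me3, which was not analysed here. A further joint list gives H3K27me3 regions as positions. With 1 tissue and 2 animals, the spread between animals is known only as the difference between replicates, and differences between windows of 1 genome have no replicate test.

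H3K4me3 sits on nucleosomes around the start sites of active genes, and also on many start sites that are held silent. H3K27ac marks active promoters and enhancers. H3K27me3 is laid down by the Polycomb repressive complex over developmental genes that a tissue keeps off, and it cannot share a histone tail with H3K27ac, because both modify the same lysine. Perirenal fat of the late gestation lamb is brown fat, which produces heat after birth. A stretch with none of these marks may lack genes or may hold genes used in other tissues, and gene content was not analysed here.

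The edges of the choice were narrow for some windows and wide for others. A total of 344 windows held exactly 1 joint region and so fell just outside the rule, 242 of them through an H3K27ac region and 102 through an H3K4me3 region. The bases that this region shared with its window ran from 289 upwards, with a median of 3350.5. Just inside the rule, 3 unmarked windows had a joint region within 1 kb of an edge, the nearest at 80 bp. Over all unmarked windows the distance from an edge to the nearest joint region had a median of 205.7 kb and reached 4.18 Mb. The remaining 4101 windows held a median of 11 joint regions and at most 59.

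The unmarked windows lay in 432 runs of neighbours. Single windows made up 262 of the runs, and 87 runs had 2 windows, 38 had 3, 20 had 4 and 25 had 5 or more. The 25 long runs held 158 windows, and 526 windows (66.8%) had at least 1 unmarked neighbour. On chromosome 16 lay a pair of runs of 10 windows each, the longest found. The first, chr16:42500001-47500000, held no H3K27me3 region, and the peak callers placed in it 1 H3K4me3 peak in replicate 1 and 6 in replicate 2. It also held 0 H3K27ac peaks in replicate 1 and 4 in replicate 2. The second, chr16:50500001-55500000, held 4 H3K27me3 regions, 5 H3K4me3 peaks in each replicate and no H3K27ac peak. Both runs were thus nearly bare of peaks in all 4 libraries.

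Chromosome 4 began with a run of 9 windows, chr4:1-4500000, with 2 H3K27me3 regions, 3 H3K4me3 peaks in each replicate and no H3K27ac peak. The run chr9:6000001-10000000, of 8 windows, held 2 H3K27me3 regions, and its H3K4me3 peaks numbered 3 in replicate 1 and 6 in replicate 2. The run chr10:6000001-10000000, also of 8 windows, held no H3K27me3 region, 3 H3K4me3 peaks and 1 H3K27ac peak, all from replicate 2. A further run of 8 windows, chr12:6000001-10000000, held no H3K27me3 region, 4 H3K4me3 peaks and 5 H3K27ac peaks, again all from replicate 2. Of the 25 long runs, 13 held no H3K27me3 region at all.

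The share of windows that were unmarked differed between chromosomes, with a median of 17.1%. Chromosome 10 had the highest share, with 48 of 172 windows (27.9%). Chromosome 26 followed with 22 of 87 (25.3%) and chromosome 16 with 35 of 143 (24.5%). The lowest shares were those of chromosome 13, with 11 of 165 windows (6.67%), chromosome 7, with 17 of 199 (8.54%), and chromosome 11, with 11 of 124 (8.87%). On chromosome 11 the longest run was 2 windows.

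**Figure D1:**
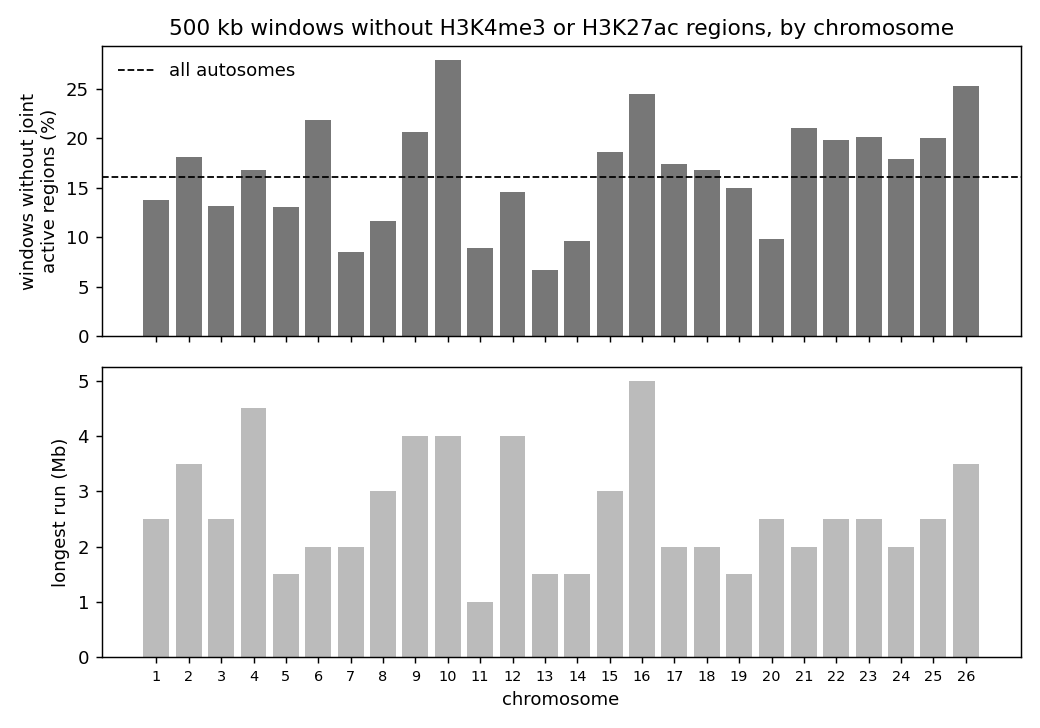
Share of 500 kb windows without a joint H3K4me3 or H3K27ac region on each autosome (upper panel, percent, dashed line at the share over all autosomes) and length of the longest run of such windows (lower panel, Mb). Chromosomes 10, 26 and 16 stand highest in the upper panel and chromosomes 13, 7 and 11 lowest, and the longest run, of 5 Mb, is on chromosome 16.

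Position along the chromosome also set windows apart. In the first 5 Mb of the 26 chromosomes, 68 of 260 windows were unmarked (26.2%), against 23 of 260 (8.85%) in the last 5 Mb and 697 of 4369 (16.0%) in between. Sheep chromosomes 1 to 3 are joined from 2 arms, and the others have their centromere near one end. The first 5 Mb held 5 unmarked windows of 30 (16.7%) on chromosomes 1 to 3 and 63 of 230 (27.4%) on chromosomes 4 to 26. Of the 432 runs, 7 began at position 1. Assembly gaps and the share of sequence to which reads map uniquely were not measured here, and their part in the count was not tested.

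H3K27me3 was not itself used to choose the windows. The rule did remove every window where an H3K27me3 region overlapped a joint active region, so the values below are not independent of it. At least 1 H3K27me3 region overlapped 214 of the 788 unmarked windows (27.2%, Wilson 95% interval 24.2 to 30.4), where the share over all autosomal windows was 59.2%. Among the other windows 2682 of 4101 (65.4%) held a region. The unmarked windows were covered to 0.669% of their bases on average (median 0, maximum 25.5%), and the other windows to 2.22% (median 0.779%, maximum 52.0%). Coverage of at least 5% of bases was reached by 26 unmarked windows (3.30%), beside 11.9% of all windows and 556 of the other windows (13.6%). Mean coverage was lower in the unmarked windows than in the rest of the same chromosome on 25 of 26 chromosomes. The exception was chromosome 11, with 4.79% against 4.46%, where the 11 unmarked windows include the most heavily covered one of all. When the windows were chosen on the replicate 1 peaks alone, mean coverage was 0.311% and 109 of 659 windows held a region. Chosen on replicate 2 alone, they were covered to 0.769%, and 171 of 599 held a region. Intervals here and below cover counting error only.

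H3K27me3 was more frequent in windows with more active regions, up to the group with 6 to 10. An H3K27me3 region was present in 45.3% of the 344 windows with 1 joint active region, 60.7% of the 866 with 2 to 5, and 72.3% of the 806 with 6 to 10. It was present in 69.5% of the 1273 windows with 11 to 20 active regions and 65.5% of the 812 with more. Mean coverage ran from 0.669% in the unmarked windows through 1.10%, 2.04% and 3.00% to 2.20% and 2.14% in the same order. The unmarked windows and those with a single active region thus had the lowest H3K27me3 values of the 6 groups.

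**Figure D2:**
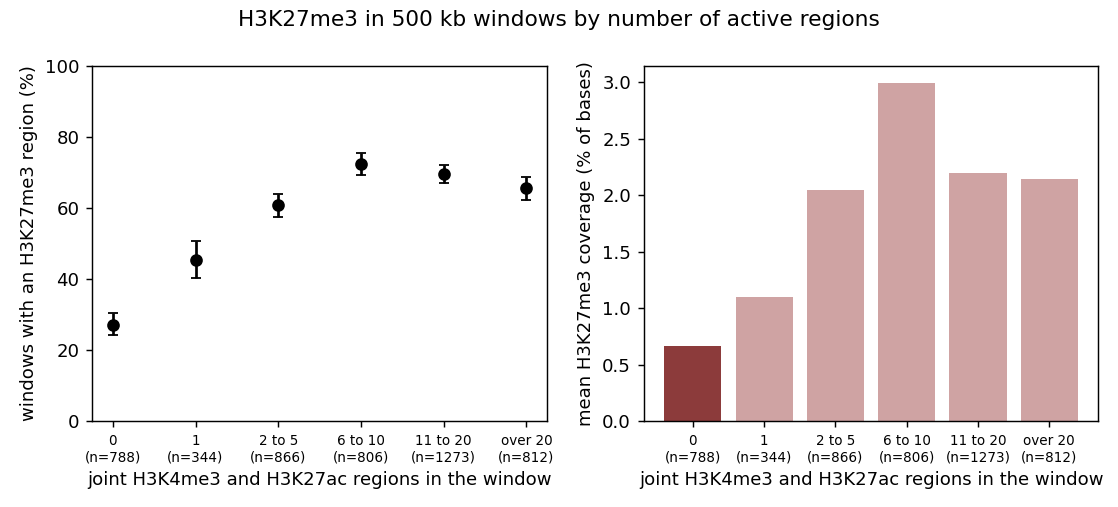
Share of 500 kb windows with an H3K27me3 region (left, percent, bars are Wilson 95% intervals) and mean share of bases covered by H3K27me3 (right, percent), for windows grouped by their number of joint H3K4me3 and H3K27ac regions. The unmarked windows (0 regions) are lowest in both panels, at 27.2% and 0.669%, and the windows with 6 to 10 regions are highest.

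Among the unmarked windows, H3K27me3 went with isolation. Windows with no unmarked neighbour held a region in 36.6% of cases (96 of 262) and were covered to 1.35%. In runs of 2 the values were 32.8% of 174 windows and 0.512%, and in runs of 3 or 4 they were 22.2% of 194 and 0.334%. In runs of 5 or more, 18 of 158 windows held a region (11.4%, Wilson 95% interval 7.33 to 17.3) and coverage was 0.132%. Of the 26 windows covered to 5% or more, 23 stood alone. These 26 also lay nearer to active chromatin, with a median of 75.4 kb from an edge to the nearest joint active region, against 246 kb for the 574 windows without H3K27me3. Windows that stand alone have no unmarked neighbour by definition, so the shorter distance follows in part from the grouping.

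H3K27me3 was unevenly spread over the unmarked windows. Of 2637.65 kb of H3K27me3 in unmarked windows, the 10 most covered held 31.3% and the 50 most covered held 69.0%. Such shares were not computed for the other windows. The most covered window, chr11:57500001-58000000, had 34 H3K27me3 regions over 25.5% of its bases, with 13 and 6 H3K4me3 peaks in replicates 1 and 2, and 1 and 0 H3K27ac peaks. The window chr15:26000001-26500000 had 30 regions over 20.7%, with 10 and 9 H3K4me3 peaks. These 2 windows were thus rich in Polycomb mark and in H3K4me3 peaks that missed the joint list.

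The window chr1:11500001-12000000 had 27 regions over 19.0% of bases, with 6 and 4 H3K4me3 peaks. The window chr10:85000001-85500000 had 33 regions over 18.8%, with 12 and 6 H3K4me3 peaks, and chr22:42000001-42500000 had 25 regions over 16.4%, with 5 and 2. The last 3 held no H3K27ac peak in either replicate. Each of the 5 most covered windows stood alone.

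The H3K27me3 regions inside the unmarked windows were set against those of the other windows. The 903 regions had a median length of 2549 bp, the longest 14146 bp. An H3K4me3 peak of any FDR overlapped 31.1% of them in replicate 1, 20.6% in replicate 2 and 18.1% in both. Among the 11939 H3K27me3 regions of other windows that overlapped no joint active region, the median length was 2274 bp, and the shares were 33.7%, 21.8% and 19.1%. Over all 14461 H3K27me3 regions of the other windows, joint active regions included, the shares were 44.0%, 34.3% and 31.5%. H3K27ac peaks overlapped 3 of the 903 regions in replicate 1 (0.332%) and none in replicate 2. In the 11939 regions the H3K27ac shares were also low, at 1.68% and 0.461%.

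Peaks of single libraries, and peaks of both libraries of which at least 1 was above the FDR limit, remained inside the unmarked windows. For H3K4me3, replicate 1 had 702 peaks there (1.78 per Mb) in 295 windows, which is 37.4% of them beside 86.1% of all windows. Replicate 2 had 777 (1.97 per Mb) in 383 windows, 48.6% beside 90.3%. The other windows held 21.6 and 24.5 H3K4me3 peaks per Mb. For H3K27ac, replicate 1 had 64 peaks (0.162 per Mb) in 49 windows, 6.22% beside 82.8% of all windows. Replicate 2 had 249 (0.632 per Mb) in 181 windows, 23.0% beside 85.2%, and the other windows held 24.5 and 23.9 per Mb. The low values follow from the rule. In bulk tissue, a mark in few cells and a weak mark in many cells cannot be told apart. Chosen on 1 library alone, windows hold no peak of that library within the FDR limit, by construction. The H3K4me3 mean of both replicates, 1.88 per Mb here, was 1.69 for windows chosen on replicate 2 and 1.06 for windows chosen on replicate 1. The H3K27ac mean, 0.397 per Mb here, was 0.0684 for windows chosen on replicate 2 and 0.288 for windows chosen on replicate 1.

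No peak of any of the 4 libraries fell in 300 unmarked windows (38.1%), and 268 windows (34.0%) also had no H3K27me3 region. These 300 were the only such windows among all 4889, as 0 of the 4101 other windows lacked a peak. The rule largely fixes this, because joint regions are made of peaks. In the long runs 77 of 158 windows were empty in this sense. H3K4me3 density was lower in longer runs in both replicates, at 2.83 and 2.84 per Mb in windows that stood alone and at 0.785 and 1.16 in runs of 5 or more. H3K27ac of replicate 1 was at 0.267 and 0.0380 per Mb in the same order. H3K27ac of replicate 2 was at 0.786 per Mb in windows that stood alone and at 0.582 in long runs.

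**Figure D3:**
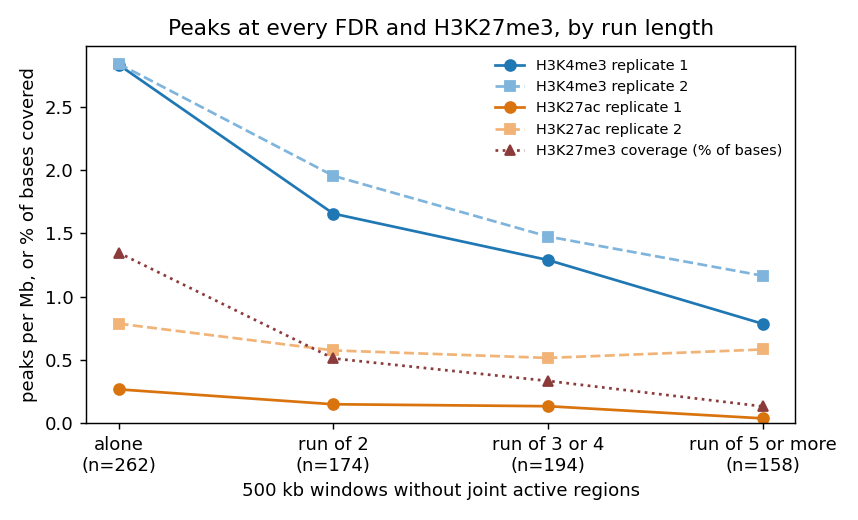
Density of the peaks of each library at every FDR (peaks per Mb) and mean H3K27me3 coverage (percent of bases) in unmarked windows, grouped by the length of the run they lie in. Both H3K4me3 lines and the H3K27me3 line are lowest in the long runs, while H3K27ac of replicate 2 stays between 0.515 and 0.786 per Mb.

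The H3K4me3 peaks in unmarked windows were close in fold and tags to the H3K4me3 peaks of other windows that overlapped no joint region of either mark. Their median fold enrichment over input was 23.3 in replicate 1 and 27.5 in replicate 2, and their median tag counts were 144 and 154. Outside the joint regions of the other windows, the medians were 23.5-fold and 27.5-fold, with 150 and 174 tags. An H3K27ac peak of the same animal overlapped 2.56% and 9.27% of the H3K4me3 peaks in unmarked windows. Outside the joint regions of other windows the shares were 15.6% and 15.7%. The rule left few H3K27ac peaks to overlap in unmarked windows, so this difference is not a result about the H3K4me3 peaks. H3K27ac peaks numbered 0.162 and 0.632 per Mb there, against 5.18 and 4.89 per Mb outside the joint regions of other windows. Median FDR was 2.10% and 3.06% in the unmarked windows. Of the 702 peaks of replicate 1, 145 were within the 1% limit, and 124 of those overlapped a replicate 2 peak that was over it, the closest at 1.02%. Of the 777 peaks of replicate 2, 19 were within the limit.

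A minority of the H3K4me3 peaks of either library was found in both animals. Of the replicate 1 peaks, 330 (47.0%, Wilson 95% interval 43.3 to 50.7) overlapped a replicate 2 peak, and 332 of the replicate 2 peaks (42.7%) overlapped a replicate 1 peak. In other windows, outside the joint regions, these shares were higher, at 56.9% and 56.6%. Such places lay in 199 unmarked windows (25.3%), where 81.8% of all windows held one. With H3K27ac counted too, 202 windows held a peak common to both libraries of a mark, and 89 of 659 did when the windows were chosen on replicate 1 alone. Over the 330 pairs, the fold enrichment had a median of 29.8 in replicate 1 and 30.7 in replicate 2, and Spearman's rho between the replicates was 0.56. The pairs share the input library, so the rho is a description and has no p. In 124 pairs replicate 1 alone was within 1%, in 15 pairs replicate 2 alone, and in 191 neither.

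**Figure D4:**
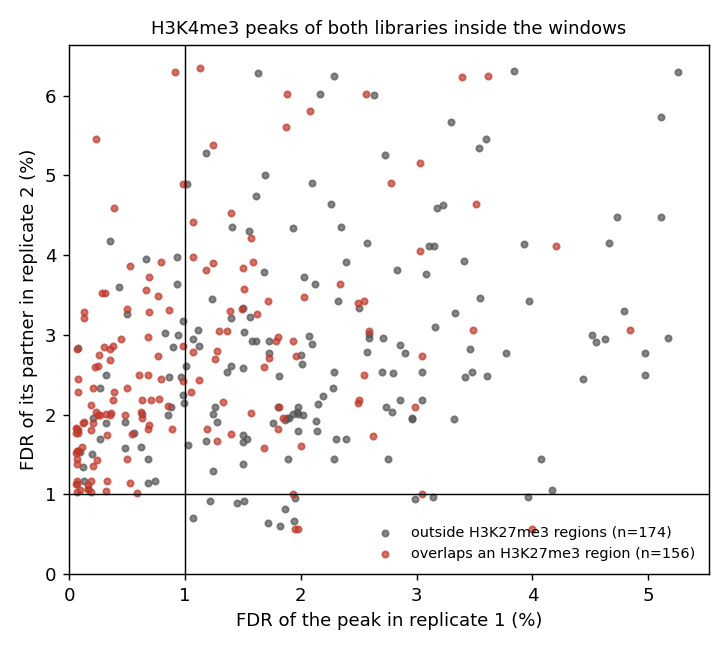
FDR in replicate 1 (x axis, percent) and replicate 2 (y axis, percent) of the 330 pairs of overlapping H3K4me3 peaks inside unmarked windows, with lines at the 1% limit and colour for overlap with an H3K27me3 region. No pair lies within 1% on both axes, which the choice of windows fixes, and 124 lie within it in replicate 1 only.

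A minority of these H3K4me3 peaks in each library lay on Polycomb-marked chromatin, a combination known as bivalent at promoters of developmental genes. In unmarked windows 282 replicate 1 peaks (40.2%, Wilson 95% interval 36.6 to 43.8) and 190 replicate 2 peaks (24.5%, interval 21.6 to 27.6) overlapped an H3K27me3 region. Over all autosomal peaks, joint active regions included, the shares were 16.1% and 11.2%. Outside the joint regions of other windows they were 22.6% and 14.9%. Without the 26 most covered windows, 34.7% of 531 peaks and 19.8% of 667 peaks overlapped H3K27me3. In other windows with less than 5% coverage, peaks outside the joint active regions did so in 13.2% and 8.57% of cases. Peaks found in both libraries did so in 156 of 330 pairs (47.3%), peaks of replicate 1 alone in 126 of 372 (33.9%) and peaks of replicate 2 alone in 32 of 445 (7.19%). Outside the joint regions of other windows, replicate 1 peaks shared with replicate 2 did so in 22.1% of cases. Peaks of replicate 1 alone did so there in 23.4% and peaks of replicate 2 alone in 5.06%. The low share of single replicate 2 peaks was thus not particular to the unmarked windows. An H3K4me3 peak in both libraries was found in 24 of the 26 most covered windows (92.3%) and in 64 of the 574 windows without H3K27me3 (11.1%). The share was 25.3% over all unmarked windows and 81.8% over all autosomal windows. Seen from the H3K27me3 regions, 18.1% had H3K4me3 in both libraries, close to the 19.1% in other windows outside joint active regions. The rule removed windows with joint active regions, and with them H3K4me3 peaks that overlapped H3K27ac of the same animal. The higher H3K27me3 shares among the H3K4me3 peaks may follow in part from this choice, which was not tested.

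The strongest H3K4me3 peaks of the unmarked windows were found in both animals. In replicate 1 the highest fold was at chr25:2910835-2911382, 57.9-fold with 110 tags and an FDR of 1.18%, where replicate 2 had 67.2-fold with an FDR of 1.67%. Next came chr8:50088341-50090583, 57.7-fold, with 39.0-fold in replicate 2, and chr2:90101185-90103344, 57.2-fold, with 42.9-fold in replicate 2. Both of the latter lay on H3K27me3 and were within the limit in replicate 1, with replicate 2 at 1.54% and 1.03%.

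In replicate 2 the highest fold was at chr1:131624757-131626188, 76.9-fold, against 27.4-fold in replicate 1, and H3K27ac of the same animal peaked there too. The peak at chr13:40270183-40270853 followed with 76.5-fold, against 44.7-fold, on H3K27me3. The peak at chr1:220786407-220787712 had 76.1-fold, against 43.9-fold, and also carried H3K27ac of replicate 2. The first and last of these were within the 1% limit in replicate 2 and outside it in replicate 1.

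The replicates differed most in H3K27ac. The ratio of replicate 2 to replicate 1 peaks was 3.89 in unmarked windows, against 0.977 in the other windows, and replicate 2 had more peaks on 23 of 26 chromosomes. For H3K4me3 the ratio was 1.11 against 1.14. The libraries had nearly equal tag totals for H3K27ac. Just 3 places had an H3K27ac peak in both animals, in 3 windows (0.381%), where 80.6% of all windows held one. The rule kept this count low, because overlapping peaks within the FDR limit in both replicates form a joint region and exclude the window. All 64 peaks of replicate 1 and 246 of the 249 of replicate 2 were within the limit. Only the 3 replicate 2 peaks above it could be shared, so the count does not show that the animals differ. Median fold enrichment of the H3K27ac peaks was 20.9 in replicate 1 and 22.8 in replicate 2, with medians of 338 and 333 tags. Whether the difference in the number of H3K27ac peaks comes from the animals or from the libraries cannot be told apart with 1 library per animal. The window chr3:2000001-2500000 held 21 H3K4me3 peaks of replicate 1 and 8 of replicate 2, 7 H3K27ac peaks of replicate 1 and none of replicate 2. It had the most peaks of all unmarked windows and was singled out after its values were seen.

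The H3K27ac peaks were also set against the H3K4me3 peaks of either animal, starting with replicate 2. Of the 249 peaks, 69 (27.7%, Wilson 95% interval 22.5 to 33.6) overlapped an H3K4me3 peak of replicate 2 and 15 (6.02%, interval 3.68 to 9.70) one of replicate 1. The 64 peaks of replicate 1 did not show this order, with 19 (29.7%) on H3K4me3 of the same animal and 23 (35.9%) on that of the other. In the other windows, outside the joint regions of both marks, the replicate 2 shares were 23.6% and 11.6%, and the replicate 1 shares 24.1% and 26.7%. None of the 249 peaks overlapped H3K27me3, with an upper Wilson limit of 1.52%, which does not set them apart from the 0.479% of replicate 2 peaks outside the joint regions of other windows.

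Merging overlapping peaks of all libraries gave 1344 places inside unmarked windows. A single library had a peak at 946 of them, 2 libraries at 371, 3 at 27 and all 4 at none. Peaks of 1 animal only were found at 1007 of the 1344 places. The rule favours these, because overlapping peaks of a mark within the limit in both animals exclude the window. One-animal places were not counted in other windows. At 54 places, spread over 51 windows, replicate 2 had both H3K4me3 and H3K27ac while replicate 1 had neither, and none of the 54 overlapped H3K27me3, as for all H3K27ac peaks of replicate 2 here. The reverse was found at 7 places. Replicate 2 had 249 H3K27ac peaks in unmarked windows and replicate 1 had 64, so more such places could arise in replicate 2. Places of this kind were not counted in other windows. The 54 places had a median of 28.3-fold for H3K4me3 and 24.0-fold for H3K27ac. By H3K27ac fold, chr8:17643735-17647495 led them, with 37.4-fold and 666 tags for H3K27ac and 25.1-fold and 213 tags for H3K4me3.

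**Figure D5:**
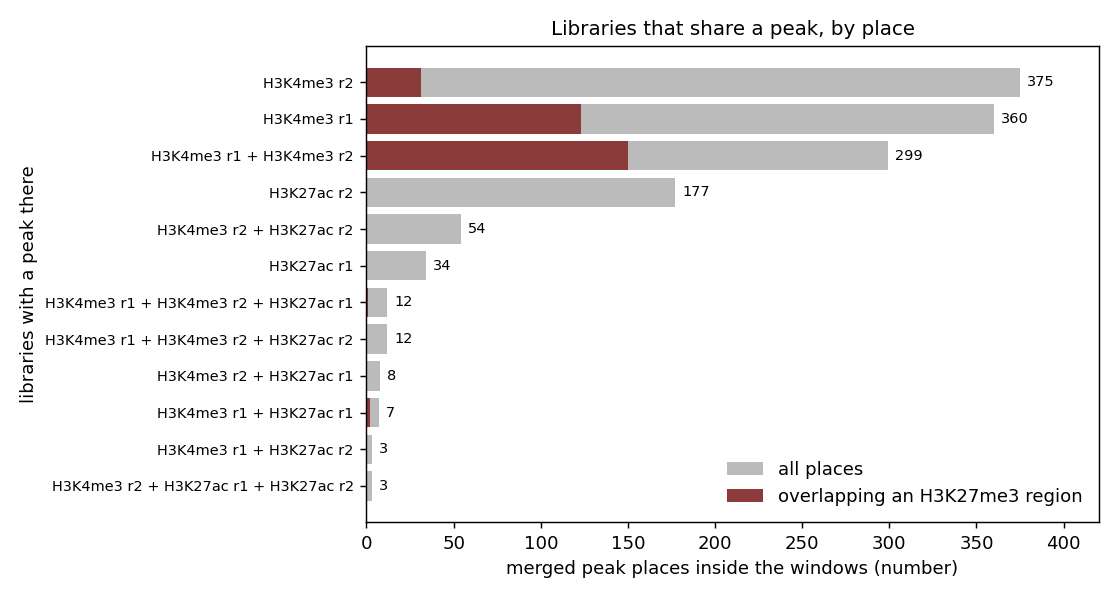
Number of merged peak places inside unmarked windows for each combination of libraries with a peak there (r1 and r2 are replicates 1 and 2), with the part that overlaps an H3K27me3 region in dark red. H3K4me3 of both replicates shares 299 places, of which 150 lie on H3K27me3, and H3K27ac of replicate 2 has 177 places of its own, none of them on H3K27me3.

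The 3 places with H3K27ac in both animals were strong peaks. At chr1:172196019-172202522, H3K27ac had 1123 tags (35.0-fold, FDR 6.85%) in replicate 1 and 1057 tags (36.9-fold, FDR 10.13%) in replicate 2, and H3K4me3 of replicate 2 had 287 tags (34.3-fold). At chr22:39000116-39005577, H3K27ac had 692 tags (26.7-fold, FDR 4.06%) and 1104 tags (35.0-fold, FDR 11.59%). At chr26:9113690-9120964 it had 1008 tags (36.9-fold, FDR 4.70%) and 1191 tags (36.4-fold, FDR 10.77%). Each missed the joint list through a replicate 2 FDR just over 10%, although its tag count was above the median of 333.

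In the H3K27ac files the peaks with an FDR over 10% were peaks with many tags. The 1879 autosomal replicate 2 peaks above 10% had a median of 1588 tags and a score of 573 (the score rises as the p-value falls), against 485 tags and 103 within the limit. In replicate 1, the 1553 peaks above 10% had a median of 1721 tags against 510. The 3 windows above were therefore unmarked by the limit, with strong H3K27ac signal in both animals.

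Places with peaks of 3 libraries also included chr3:47333891-47335215, where H3K4me3 had 27.8-fold in replicate 1 and 73.6-fold in replicate 2, and H3K27ac of replicate 2 had 34.5-fold. At chr1:220786184-220788025 the same libraries had 43.9-fold, 76.1-fold and 27.7-fold, and at chr10:64217759-64219381 they had 43.1-fold, 59.9-fold and 25.7-fold. In all 3 places replicate 2 was within the H3K4me3 limit and replicate 1 was not. Among H3K27ac peaks found in 1 library, the highest fold was at chr3:159362582-159365636 in replicate 2 (42.7-fold, 482 tags) and at chr3:2170880-2172790 in replicate 1 (30.6-fold, 262 tags).

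Genes could be named in a small part of the unmarked windows only, from the list of selection sweep regions that the study located on the same assembly. Of its 635 regions, 90 (14.2%) lay wholly in unmarked windows, close to the 16.1% of windows that were unmarked. A gene inside was listed for 17 of the 90 (18.9%) and for 298 of the 541 regions that lay outside unmarked windows (55.1%). A longer region can list a gene more easily, and the lengths of the regions were not compared. Named genes with a function outside adipose tissue included KRT72 and KRT74, keratins of the hair follicle, on chromosome 3, and SLAMF1 and SLAMF7, receptors of immune cells, on chromosome 1. FSIP2, a protein of the sperm tail, lay on chromosome 2, MAGI2, a scaffold protein of synapses and of the kidney filter, on chromosome 4, and CA10, a brain protein of the carbonic anhydrase family, on chromosome 11. MGAM2 on chromosome 4 was also listed, and the rest of the 17 regions listed genes with an identifier but no name. No H3K27me3 region overlapped any of the 90 regions, and a peak of any library overlapped 6 of them. These counts were not made for the 541 other regions, so they do not set the 90 apart. They also do not describe the windows around the sweep regions. The window with KRT72 and KRT74, chr3:133500001-134000000, held 20 H3K27me3 regions over 10.6% of its bases. The run with MAGI2, chr4:42000001-43000000, held 2 H3K27me3 regions, and those with SLAMF1, SLAMF7, FSIP2 and CA10 held 0. These genes are a sample set by the sweep list and not a survey of the windows. Gene bounds and start sites were not located, so a listed gene may reach beyond the unmarked windows and carry active marks there. Defining genes of brown fat were not located on this assembly here, so the labelled tissue was not checked against them.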

How the data were processed

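H3K4me3 and H3K27ac ChIP-Seq libraries of 2 animals and 1 pooled input were analysed. The reads were mapped to Oar_v3.1 and peaks called with MACS 1.4.2 by the authors. The peak lists the authors deposited give tag counts, a score (a log10 scale of the p-value), fold enrichment over input as a ratio, and FDR in percent. Joint lists give positions. When peaks within an FDR of 1% and 10% that overlapped between replicates were joined, this returned 16098 of 16098 H3K4me3 and 35265 of 35266 H3K27ac regions with the same start and end. The columns of 2 per-library H3K27me3 files, which no sample stands for, were not used.

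Windows of 500 kb ran from position 1 to the last position in any list, and partial last windows (6.22 Mb) were dropped. An overlap was 1 bp or more. A library's peak belonged to the window of its midpoint. Shares carry Wilson 95% intervals. Depth enters through the tags per library, and the lists hold no reads. The groups were the marks, with animals as replicates. Window length, window start, overlap rule, FDR limit and single replicates were varied. The members and lists were chosen with earlier results of these data known. Regions named were the 5 longest runs with ties, 3 chromosomes at either end, the 5 windows of highest H3K27me3 coverage, the 3 peaks of highest fold per library, and 5 places with most libraries. The 54 places of replicate 2, the window on chromosome 3, the 3 places with H3K27ac in both animals and the sweep list as a source of gene names were chosen after the values were seen. No annotation or sequence of Oar_v3.1 was used here, so gene content and sequences are not analysed here. On simulated data the code recovered 150 of 150 windows without a region among 400. Overlaps were computed in Python 3.11.15 with pandas 2.3.3 and numpy 2.4.6, intervals with scipy 1.17.1, and plots with matplotlib 3.10.9.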

Additional observations from a re-analysis of the deposited data

How the results depend on the processing

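With 250 kb windows there were 2667 unmarked windows, the longest run had 22, 624 held H3K27me3, mean coverage was 1.00%, H3K4me3 peaks numbered 2.97 per Mb, and 594 windows held a peak common to both libraries of a mark. With 1 Mb windows the values were 179, 4, 66, 0.300%, 1.37 and 55. Windows shifted by 250 kb had 0.570% coverage, and counting region midpoints gave 0.667%. A stricter FDR (0.5% for H3K4me3, 5% for H3K27ac) gave 354 windows with H3K27me3, 0.952% coverage, 3.09 H3K4me3 and 1.16 H3K27ac peaks per Mb and 461 windows with a common peak. With no FDR limit these were 78, 0.141%, 0.654 H3K4me3 peaks per Mb and 0 windows, the last by construction, and all 584 windows left were among the 788. Leaving out a replicate gave from 599 to 659 unmarked windows, all among the 788, a longest run of 10, from 109 to 171 windows with H3K27me3, coverage from 0.311 to 0.769%, from 1.06 to 1.69 H3K4me3 and from 0.0684 to 0.288 H3K27ac peaks per Mb, and from 89 to 141 windows with a common peak. In every setting, the cause of a change was not tested. Under each of the 8 settings mean H3K27me3 coverage of the unmarked windows stayed below the 1.97% of all 500 kb windows. No paired analysis was possible because the results come from no test. The shallow input limits the precision of fold enrichment and FDR.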

Other observations

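Chromosome X was not among the windows described. Of its 270 windows of 500 kb, 75 (27.8%) held no joint H3K4me3 or H3K27ac region, and in contrast to the autosomal ones 72 of these held H3K27me3, with a mean coverage of 47.2%. The other 195 windows of X were covered to 64.4%. H3K4me3 peaks in the 75 windows numbered 15.7 per Mb in replicate 1 and 55.1 in replicate 2, and H3K27ac peaks 0 and 0.107 per Mb. These values were looked at after the autosomal results, and the difference between the chromosomes was not tested.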
